A study of Homo sapiens with 60 samples.

Results

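Glucose enters tumour cells through facilitative transporters and is broken down to pyruvate and lactate by the glycolytic enzymes. The genes described here are 10 members of that route, namely the transporters SLC2A1 and SLC2A3 and the enzymes HK2, PFKP, ALDOA, GAPDH, PGK1, ENO1, PKM and LDHA. They were chosen by name from the 60675 genes of the deposited count table, whose Ensembl identifiers were matched to gene symbols, and all 10 were found and passed the filter on low counts. The RNA came from A549, a long-established line of human lung carcinoma cells, grown in RPMI medium with serum and treated for 24 h. The 60 libraries form 20 groups of 3. Wortmannin, which blocks PI3-kinase, was the positive control at 10 µM. Hot-water extracts of 6 crude drugs were given at 3 doses each, called low, medium and high. Zingiberis Rhizoma Recens (ZRR), Zingiberis Rhizoma (ZR), Pinelliae Tuber (PT) and Zizyphi Fructus (ZF) were used at 20, 100 or 500 µg/mL. The doses of Scutellariae Radix (SR) were 9.2, 46 or 230 µg/mL. Those of Coptidis Rhizoma (CR) were 5.2, 26 or 130 µg/mL. The vehicle was DMSO, at 0.1% by the sample labels and at 2% by the design text. For wortmannin and the extracts the labels give no DMSO percentage, so a difference in solvent, if any, cannot be told apart from treatment. Where an extract's IC20, an inhibitory concentration, was under 500 µg/mL, the design text took it as the high dose, which fits SR and CR, so doses were chosen in different ways between extracts. Nothing in the labels says whether the 3 libraries of a group came from separate cultures, so p-values measure the spread between these libraries, which may be technical.

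Glucose transporters carry the sugar down its gradient, and hexokinase then traps it in the cell by adding a phosphate. Phosphofructokinase makes the committed step, aldolase splits the sugar, and the lower enzymes from GAPDH to pyruvate kinase harvest ATP and NADH. Lactate dehydrogenase returns the NADH to NAD, so that the route can run on without respiration. Many cancers, lung carcinoma among them, keep this route active in the presence of oxygen, and insulin and PI3-kinase signalling, MYC and hypoxia-inducible factors are well-known regulators of its genes.

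The libraries held 17420358 to 36479611 estimated counts, and the 10 genes together took 1.35% to 1.67% of the counts of a library. Of 7 epithelial carcinoma markers, 7 averaged above 1 CPM (counts scaled to a common library total), and together they summed to 7270 to 11200 CPM over all libraries and to 8760 to 9240 CPM in vehicle libraries. By contrast, endothelial markers summed to at most 0.354 CPM and fibroblast markers to at most 1.2 CPM in any library. Of 5 immune markers only CD14 and ITGAM passed the filter, and the 5 summed to between 1.75 and 5.14 CPM. Most of the epithelial sum came from KRT8, AKR1B10 and KRT18, at means of 3270, 2830 and 2480 CPM with vehicle. AKR1C1 averaged 325 CPM there, CDH1 30.7 CPM, KRT19 20.2 CPM and EPCAM 4.33 CPM. All levels are CPM over library totals that were adjusted by TMM, a factor that centres the bulk of genes, so they are relative levels. A change in RNA per cell and a change in the number of living cells cannot be told apart in them. The mean TMM factor was 0.912 with CR low and 0.931 with CR medium, against 1.02 with vehicle, and between 0.997 and 1.06 in the other groups. Without TMM the median log2 change of all genes was -0.148 with CR low and -0.118 with CR medium, against 0.007 in each with TMM, so small changes at these doses depend on the scaling. A gene was called changed where edgeR's quasi-likelihood test, fitted to all 60 libraries, gave a Benjamini-Hochberg adjusted p under 0.05 over the 17129 genes tested. Fold changes are log2 values of the first group named over the second, with standard errors (SE).

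The GRCh38 positions of the members are those of GENCODE 29. SLC2A1 (ENSG00000117394, chr1:42925375-42959176, minus strand) encodes GLUT1, the widespread basal glucose transporter. SLC2A3 (ENSG00000059804, chr12:7919230-7936275, minus strand) encodes GLUT3, a high-affinity transporter best known from neurons. HK2 (ENSG00000159399, chr2:74833981-74893359, plus strand) is the insulin-responsive hexokinase that many tumours induce. PFKP (ENSG00000067057, chr10:3066333-3137712, plus strand) is the platelet form of phosphofructokinase. ALDOA (ENSG00000149925, chr16:30064164-30070457, plus strand) is the aldolase of muscle and most other tissues. GAPDH (ENSG00000111640, chr12:6533927-6538374, plus strand) oxidises glyceraldehyde phosphate and is often used as a reference transcript. PGK1 (ENSG00000102144, chrX:77910739-78129296, plus strand) makes the first ATP of the lower route. ENO1 (ENSG00000074800, chr1:8861000-8879250, minus strand) is the common enolase, and PKM (ENSG00000067225, chr15:72199029-72231822, minus strand) encodes both muscle-type pyruvate kinases by alternative splicing, which gene-level counts do not tell apart. LDHA (ENSG00000134333, chr11:18394388-18408425, plus strand) is the lactate dehydrogenase subunit that favours lactate formation.

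In vehicle libraries GAPDH was the most abundant member per length. It had a level of 3060 CPM per kilobase of its longest transcript, followed by ENO1 at 940, PKM at 897, LDHA at 744 and ALDOA at 470 CPM per kilobase. PFKP had 144, PGK1 had 121 and SLC2A1 had 50.9 CPM per kilobase. SLC2A3 was at 8.04 and HK2 at 0.278 CPM per kilobase, which makes HK2 a minor transcript here. HK2 rested on 18 to 159 counts per library, against at least 318 counts for SLC2A3 and at least 109016 for GAPDH. Pseudogenes and near copies named after a member took at most 0.976% of the counts of member and copies, for SLC2A3 with its neighbour SLC2A14 among the copies, and 0.057% for GAPDH with its 65 named copies.

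The 10 genes were tested in 32 comparisons, of which 19 set a treated group against vehicle, 6 set the high against the low dose of an extract and 7 set one extract against another. Of these 320 tests 56 were called (17.5%), 21 higher and 35 lower, where 7.28% of the tests of all genes in the same comparisons were called. SLC2A3 alone gave 20 of the calls. PKM gave 7, PFKP and PGK1 gave 6 each, LDHA gave 5, and SLC2A1 and HK2 gave 4 each. ALDOA had 2 calls, and GAPDH and ENO1 had 1 each. Comparisons with vehicle share its 3 libraries, so their results are not independent of each other. The members were also chosen with earlier results of these data known, so their share is no independent test against that of all genes.

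**Figure D1:**
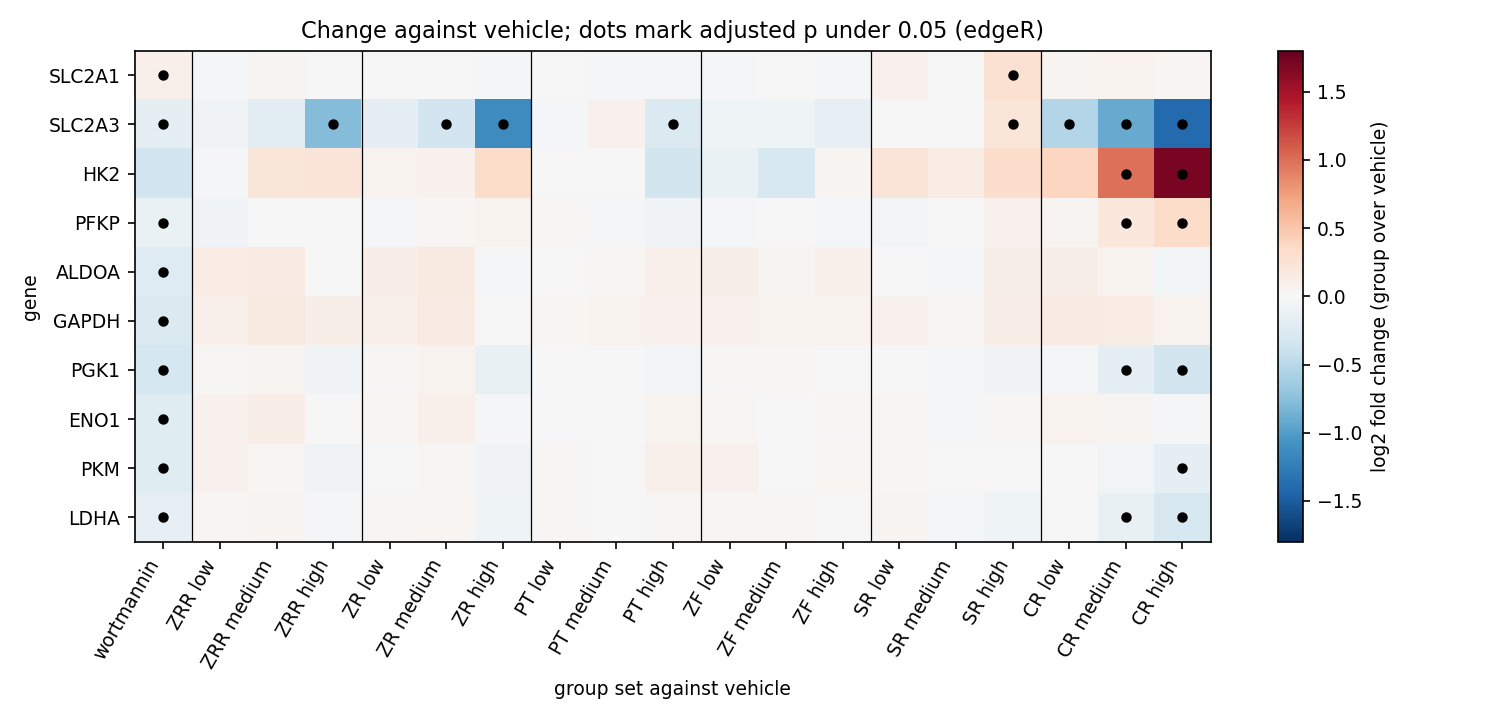
Log2 fold change of each of the 10 genes (rows) in each treated group over vehicle (columns, wortmannin first and then each extract from low to high dose), with red for higher and blue for lower, and dots where edgeR's adjusted p was under 0.05. The row of SLC2A3 holds 9 dots and that of HK2 holds 2, while GAPDH and ENO1 have 1 each, in the wortmannin column.

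With wortmannin most of the route fell. After wortmannin 9 of 10 members were called, 1 higher and 8 lower, while 25.3% of all tested genes were called. The median log2 change of the 10 genes was -0.22, against 0.01 for all tested genes. The 10 genes together took 1.367% ± 0.023 of the counts in wortmannin libraries and 1.526% ± 0.023 in vehicle libraries (SD, n = 3 each). The falls were small, the furthest of the called ones to a fitted fold of 0.803. Vehicle sample codes begin with a letter that the wortmannin codes lack, and the labels do not say what it marks. Whatever it marks cannot be told apart from wortmannin.

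Among the called enzymes PGK1 fell furthest with wortmannin. It had 473, 488 and 468 CPM in wortmannin libraries, against 576, 591 and 613 CPM in vehicle libraries. The groups did not overlap, and the log2 change was -0.32 ± 0.04 (SE, edgeR adjusted p = 1.47e-07). GAPDH had 4830, 4760 and 4760 CPM in wortmannin libraries, against 5620, 5620 and 5990 CPM in vehicle libraries, a log2 change of -0.26 ± 0.06 (SE, edgeR adjusted p = 0.000596). As the gene most used to normalise other transcripts, GAPDH was thus lower in all 3 wortmannin libraries than in any vehicle library. PKM averaged 2330 ± 72.5 CPM with wortmannin and 2700 ± 29.8 CPM with vehicle (SD, n = 3 each), ENO1 2060 ± 76.3 and 2390 ± 37.6 CPM, and ALDOA 1020 ± 17.9 and 1190 ± 44.6 CPM. The edgeR adjusted p-values of these 3 were 3.45e-05 for PKM, 0.00333 for ENO1 and 0.00388 for ALDOA.

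The other wortmannin calls were smaller. LDHA averaged 1630 ± 80.6 CPM with wortmannin and 1800 ± 27 CPM with vehicle, PFKP 367 ± 11.8 and 398 ± 10.6 CPM, and SLC2A3 31.7 ± 2.88 and 35.5 ± 0.92 CPM (SD, n = 3 each). Their edgeR adjusted p-values were 0.0236, 0.0253 and 0.0353. SLC2A1 was the member that rose, with 201, 197 and 201 CPM in wortmannin libraries, against 185, 180 and 196 CPM in vehicle libraries, a log2 change of 0.095 ± 0.034 (SE, edgeR adjusted p = 0.0329). HK2 was not called, at 1.12, 1.18 and 1.52 CPM with wortmannin and 2.04, 1.84 and 0.93 CPM with vehicle (edgeR adjusted p = 0.285). Without vehicle replicate 3, the lowest vehicle library for HK2, its log2 change was -0.60 and was called. The calls of SLC2A1, SLC2A3, PFKP and LDHA were lost without the filter on low counts and without 1 or more single libraries, and that of SLC2A1 also with the size factors of DESeq2 and when wortmannin and vehicle were fitted without the other groups. Without TMM the calls of SLC2A3, PFKP and LDHA were lost, and of all genes 18.4% were called higher and 6.97% lower, against 13.4% and 11.9% with TMM, while those of ALDOA, GAPDH, PGK1, ENO1 and PKM held under each alternative run.

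**Figure D2:**
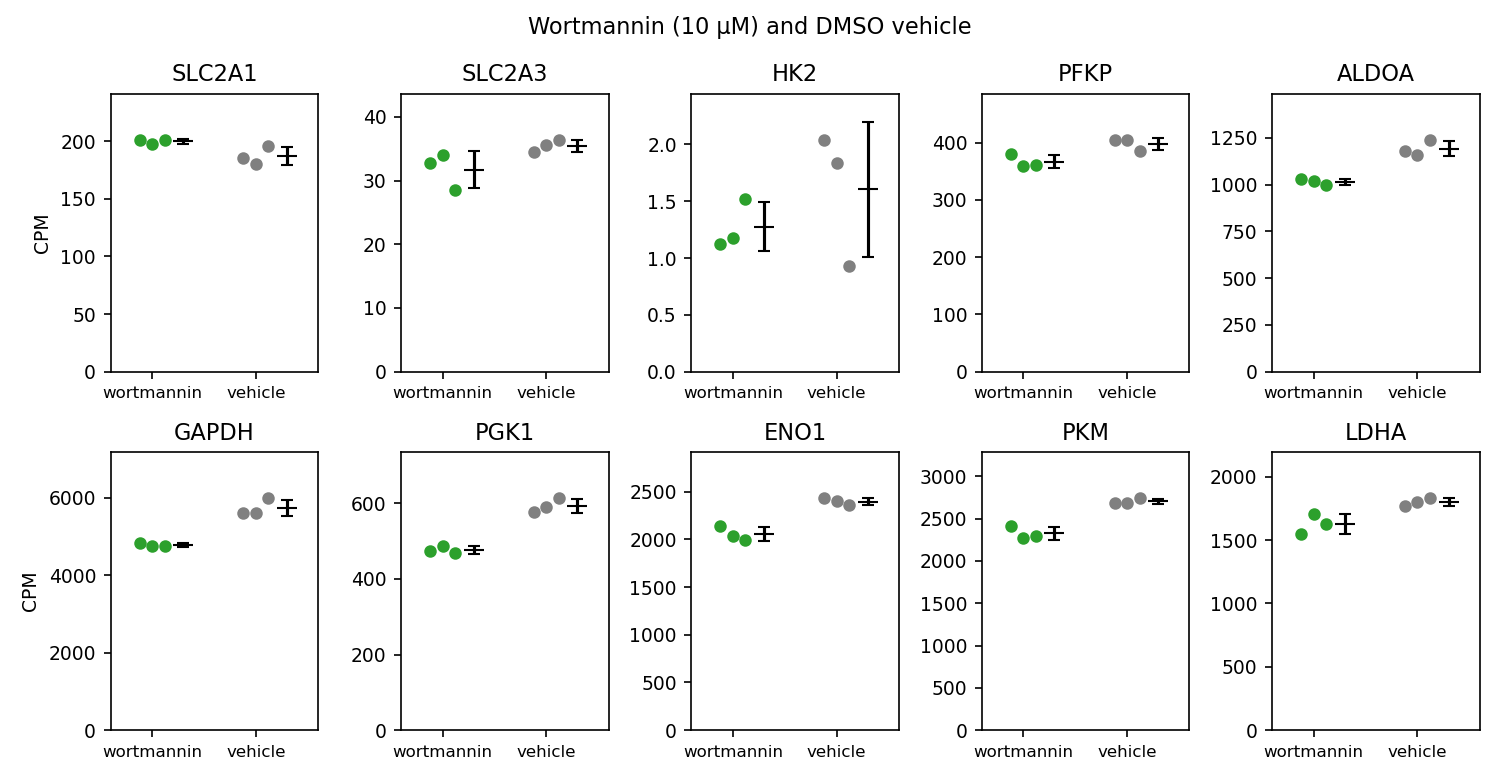
Levels of the 10 genes in CPM in the 3 wortmannin libraries (left) and the 3 vehicle libraries (right) of each panel, with the mean and SD beside the points. GAPDH, PGK1, ENO1, PKM and ALDOA lie lower in each wortmannin library than in any vehicle library, and HK2 overlaps.

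SLC2A3 was the member that changed most often, and it fell with dose in CR and in both gingers. It was called in 9 of the 19 comparisons with vehicle, lower in 8 and higher in 1. Its group means ranged from 13.5 CPM with CR high to 41.1 CPM with SR high, a 3.04-fold range, while the median spread between replicates was a coefficient of variation of 2.82%. From the lowest, the order of means was CR high, ZR high, CR medium, ZRR high, CR low, ZR medium and PT high, then the remaining 13 groups between 30.9 and 41.1 CPM. Of the neighbours among the lowest 7 only CR medium and ZRR high overlapped in their libraries. In the upper 13, PT medium and SR high stood apart from the groups next to them and the other neighbours overlapped.

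In the CR series SLC2A3 had 34.5, 35.6 and 36.4 CPM in vehicle libraries, 25.3, 25.5 and 22.9 CPM at 5.2 µg/mL, 18, 20.7 and 18.2 CPM at 26 µg/mL and 13.8, 13.4 and 13.2 CPM at 130 µg/mL. No dose overlapped with the next. The log2 changes against vehicle were -0.53 ± 0.06, -0.90 ± 0.06 and -1.40 ± 0.06 at the low, medium and high dose (SE, edgeR adjusted p = 6.78e-09, 1.52e-16 and 8e-24). At the low dose SLC2A3 was the 1 member called of 10, where 17.7% of all tested genes were called. CR high against CR low gave -0.87 ± 0.06 (SE, edgeR adjusted p = 2.68e-15), a contrast within a single first number of the sample code, which otherwise differs between vehicle and extracts and cannot be told apart from treatment.

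With the gingers SLC2A3 fell mainly at the high dose. With ZR it had 29.2, 35.1 and 29.9 CPM at 20 µg/mL, 28, 28.2 and 27.5 CPM at 100 µg/mL and 16, 16.3 and 16.5 CPM at 500 µg/mL. The high and medium doses lay below all vehicle libraries, with log2 changes of -1.13 ± 0.06 and -0.35 ± 0.06 (SE, edgeR adjusted p = 7.17e-19 and 0.00133), and the low dose overlapped with vehicle. With ZRR it had 32.7, 34.6 and 34.4 CPM at 20 µg/mL, 30.8, 30.4 and 31.5 CPM at 100 µg/mL and 19.9, 22.5 and 19.8 CPM at 500 µg/mL. Only the high dose of ZRR was called against vehicle, at -0.78 ± 0.06 (SE, edgeR adjusted p = 2.92e-13), while the medium dose at -0.20 ± 0.06 had an edgeR adjusted p of 0.136, and of 0.0165 when only those 6 libraries were fitted.

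In both gingers SLC2A3 was the 1 member of 10 called at the high dose against vehicle, where 4.03% of all tested genes were called with ZRR and 5.35% with ZR. It was also the 1 member called with ZR medium, where 0.922% of genes were called. High against low gave 2 called members of 10 with ZRR (4.17% of all genes) and 2 with ZR (4.64%), SLC2A3 among them at -0.71 ± 0.06 and -0.95 ± 0.06 (SE, edgeR adjusted p = 7.3e-12 and 2.79e-16). The second call was PKM with ZRR, at 2590 ± 24.2 CPM with the high dose and 2850 ± 28.4 CPM with the low dose (SD, n = 3 each, edgeR adjusted p = 0.0369). For ZR it was PGK1, at 541 ± 19.6 CPM with the high dose and 604 ± 43.9 CPM with the low dose (SD, n = 3 each, edgeR adjusted p = 0.0185). Both of these enzyme calls were lost without the filter, without TMM, in fits of the 6 libraries alone and when 3 libraries with a deviant length dependence (ZRR low replicate 2, ZR low replicate 3 and ZF high replicate 2) were left out.

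At their high doses PT and SR moved SLC2A3 in opposite directions, by less. With PT medium SLC2A3 had 37.7, 37.4 and 36.7 CPM, above all vehicle libraries but not called. With PT high it had 30.4, 29.9 and 28.9 CPM, against 34.5, 35.6 and 36.4 CPM with vehicle, a log2 change of -0.25 ± 0.06 (SE, edgeR adjusted p = 0.0174). This was the 1 call among the 10 members, where 1.4% of all genes were called, and it was lost in a fit of the 6 libraries alone and without vehicle replicate 2 or 3 or PT high replicate 2 or 3 (adjusted p up to 0.181). PT high against PT low gave 1 called member of 10, again SLC2A3 at -0.235 ± 0.059 (SE, edgeR adjusted p = 0.0409), where 0.549% of all genes were called, and that call was lost when any of the 6 libraries was left out. With SR high it had 44.1, 39.2 and 40 CPM, above all vehicle libraries, a log2 change of 0.21 ± 0.06 (SE, edgeR adjusted p = 0.00535).

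With ZF no member was called at any dose. SLC2A3 had 33.2, 30.6 and 32.2 CPM with ZF high, below the 3 vehicle libraries, but its log2 change of -0.15 ± 0.06 was not called (edgeR adjusted p = 0.385). Of all genes 0.0117% were called with ZF low, 0.0117% with ZF medium and 0.00584% with ZF high, and 0% in ZF high against ZF low. At an unadjusted p under 0.05 edgeR counted 1 member with ZF low, 0 with ZF medium, 1 with ZF high and 0 in high against low, and DESeq2 called 0 of 10 in each of these. The share of all genes at that unadjusted threshold was 11% with ZF low, 6.57% with ZF medium, 10.8% with ZF high and 2.32% in high against low.

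**Figure D3:**
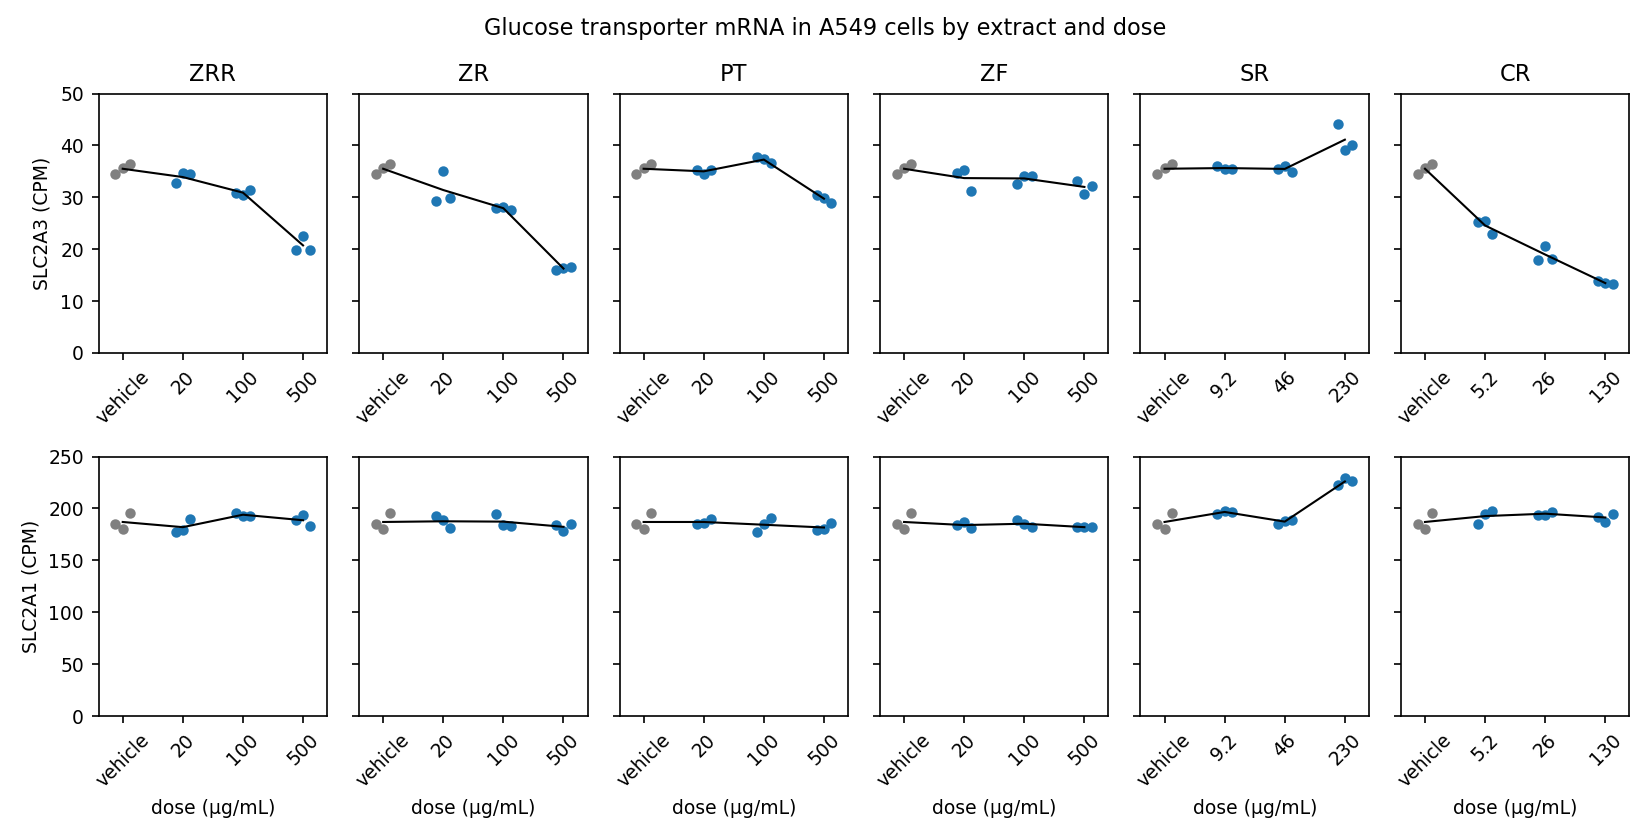
Levels of SLC2A3 (upper row) and SLC2A1 (lower row) in CPM in each library, for vehicle and the 3 doses of each extract in µg/mL, with lines through the means of 3 libraries. SLC2A3 falls to 13.5 CPM with CR high, 16.2 CPM with ZR high and 20.7 CPM with ZRR high against 35.5 CPM with vehicle, and SLC2A1 stands above the other groups only with SR high at 226 CPM.

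SLC2A1, the more abundant transporter, stayed within a narrow range. Its group means ran from 182 CPM with ZRR low to 226 CPM with SR high, and 18 of the 19 pairs of neighbours in the order of means overlapped. With SR high it had 223, 229 and 226 CPM, against 185, 180 and 196 CPM in vehicle libraries, a log2 change of 0.28 ± 0.03 (SE, edgeR adjusted p = 8.64e-09). The SR series was not even across doses, with means of 197 ± 1.8, 187 ± 2.17 and 226 ± 3.04 CPM at 9.2, 46 and 230 µg/mL (SD, n = 3 each). SLC2A1 and SLC2A3 were the 2 of 10 members called with SR high, both higher, where 23.9% of all genes were called. SR high against SR low gave 3 called members of 10, where 20.4% of all genes were called, with SLC2A1 at 0.20 ± 0.03, SLC2A3 at 0.205 ± 0.059 and PFKP at 0.12 ± 0.04 (SE, edgeR adjusted p = 9.1e-06, 0.00809 and 0.0241). The call of SLC2A3 was lost without SR high replicate 1, that of PFKP without any of 3 single libraries, and both without the filter.

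The balance of the pair shifted with the extracts that lowered SLC2A3. SLC2A3 made up 6.57% ± 0.206 of the counts of both transporters with CR high, 8.17% ± 0.201 with ZR high, 9.89% ± 0.441 with ZRR high and 14.1% ± 0.575 with PT high, against 16% ± 0.492 with vehicle (SD, n = 3 each). With SR high, where both rose, it was 15.4% ± 0.999. The libraries of CR, ZR, ZRR and PT high lay below those of vehicle, whose lowest was 15.6%. So did those of CR low and medium, ZR and ZRR medium, wortmannin and, at up to 15.4%, ZF high. With CR medium the share was 8.87% ± 0.689 and with CR low 11.3% ± 0.846.

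CR moved the enzymes in both directions. With CR high 6 of 10 members were called, 2 higher and 4 lower, where 35.1% of all genes were called. With CR medium 5 of 10 were called, 2 higher and 3 lower, where 23.2% of all genes were called. CR high against CR low gave 7 of 10, 2 higher and 5 lower, where 25.4% of all genes were called. The 2 that rose were the early enzymes HK2 and PFKP in each of these. SLC2A3, PGK1 and LDHA fell in each, PKM in both comparisons of CR high, and ALDOA in CR high against CR low. The 10 genes summed to 15900 ± 443 CPM with CR low, 15500 ± 327 CPM with CR medium and 14600 ± 181 CPM with CR high, beside 15000 ± 294 CPM with vehicle. As plain shares of the counts they took 1.446% ± 0.081, 1.437% ± 0.004 and 1.462% ± 0.017 at these doses, beside 1.526% ± 0.023 with vehicle (SD, n = 3 each), so at the low and medium dose the sum lay on opposite sides of vehicle by these measures. Without TMM 5 of 10 members were called with CR low, all lower, where 2.49% of all genes were called higher and 31.4% lower, against 8.51% higher and 9.15% lower with TMM. For CR medium the split without TMM was 1 member higher and 4 lower, with 5.59% of all genes higher and 25.3% lower, against 12.1% and 11.1% with TMM. For CR high against CR low it was 3 members higher and 3 lower, with 30.7% of all genes higher and 5.07% lower, against 13.1% and 12.3% with TMM. CR high against vehicle kept 2 members higher and 4 lower. The median of the 10 genes against vehicle was -0.05 on the log2 scale with CR high, beside 0.01 for all genes.

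HK2 rose most of all members. It had 2.04, 1.84 and 0.93 CPM in vehicle libraries, 2.15, 1.95 and 2.36 CPM with CR low, 3.45, 3.3 and 3.06 CPM with CR medium and 5, 5.46 and 5.69 CPM with CR high. In counts these were 137 to 159 per library with CR high and 18 to 49 with vehicle. The medium and high doses lay above all vehicle libraries, and the low dose overlapped. The log2 changes were 1.00 ± 0.20 for the medium and 1.71 ± 0.19 for the high dose (SE, edgeR adjusted p = 0.000197 and 4.31e-10), and 1.325 ± 0.187 for high against low (edgeR adjusted p = 2.22e-07). In the groups other than CR medium and CR high HK2 had means of 1.27 to 2.15 CPM, each overlapping with its neighbours in that order, and it was not called against vehicle.

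PFKP followed the same order of doses with a smaller size. It averaged 398 ± 10.6 CPM with vehicle and 412 ± 18.5, 456 ± 6.85 and 502 ± 15.7 CPM at the low, medium and high dose of CR (SD, n = 3 each). In CR high libraries it had 483, 509 and 512 CPM, and in vehicle libraries 404, 405 and 386 CPM, without overlap. The log2 changes were 0.19 ± 0.04 for the medium and 0.33 ± 0.04 for the high dose (SE, edgeR adjusted p = 0.000285 and 3.4e-09), and without TMM the medium dose was not called (edgeR adjusted p = 0.256). Over the 20 group means the log2 levels of HK2 and PFKP had a Pearson r of 0.941, the highest of the member pairs together with PGK1 and LDHA, also at 0.941. The 3 CR groups contribute to both, and no p is given.

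PGK1 and LDHA fell together with CR dose. PGK1 had 473, 472 and 471 CPM with CR high, against 576, 591 and 613 CPM with vehicle. Its log2 changes were -0.17 ± 0.04 with the medium and -0.33 ± 0.04 with the high dose (SE, edgeR adjusted p = 0.00249 and 2.01e-08). LDHA had 1440, 1480 and 1490 CPM with CR high, against 1770, 1800 and 1830 CPM with vehicle, a log2 change of -0.29 ± 0.05 (SE, edgeR adjusted p = 2.37e-06). With CR medium LDHA was at -0.14 ± 0.05 (edgeR adjusted p = 0.0296), a call that was lost under several alternatives. At the low dose PGK1 averaged 585 ± 34 CPM and LDHA 1790 ± 85.2 CPM, overlapping with vehicle at 593 ± 18.8 and 1800 ± 27 CPM (SD, n = 3 each).

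PKM was called lower with CR at the high dose. It had 2380, 2420 and 2410 CPM with CR high, against 2690, 2680 and 2740 CPM with vehicle, a log2 change of -0.17 ± 0.04 (SE, edgeR adjusted p = 0.000573, and 0.0508 without the filter on low counts). With CR medium it averaged 2620 ± 94 CPM and was not called (edgeR adjusted p = 0.456, and 0.000406 without TMM, where it was lower). In CR high against CR low its log2 change was -0.18 (edgeR adjusted p = 0.000578, and 0.474 without TMM). ALDOA, GAPDH and ENO1 were not called with CR against vehicle at any dose. GAPDH averaged 5740 ± 216 CPM with vehicle and 6360 ± 141, 6270 ± 104 and 6030 ± 123 CPM at the low, medium and high dose (SD, n = 3 each). ENO1 averaged 2330 ± 15 CPM with CR high and 2390 ± 37.6 CPM with vehicle, and ALDOA 1150 ± 3.44 and 1190 ± 44.6 CPM. ALDOA was called lower in CR high against CR low at -0.16 ± 0.06 (SE, edgeR adjusted p = 0.0453), and that call was lost without TMM and without any of 5 single libraries.

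The dependence of counts on transcript length was weaker in each CR low library than in any vehicle library, while CR medium and CR high overlapped with vehicle. Regressed on transcript length, both as log2, CPM had a mean slope of 1.04 with vehicle, 0.95 with CR low, 0.978 with CR medium and 1.01 with CR high. ZR medium at 0.952 and ZRR low at 0.954 lay about as low as CR low. With that slope as a covariate 5 members were called with CR low, HK2 among them, where 12.2% of all genes were called, and 8 with CR high, where 45.3% were called. In CR high against CR low the count with the covariate was 6 (30.1% of all genes), and the directions of the calls above did not change.

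**Figure D4:**
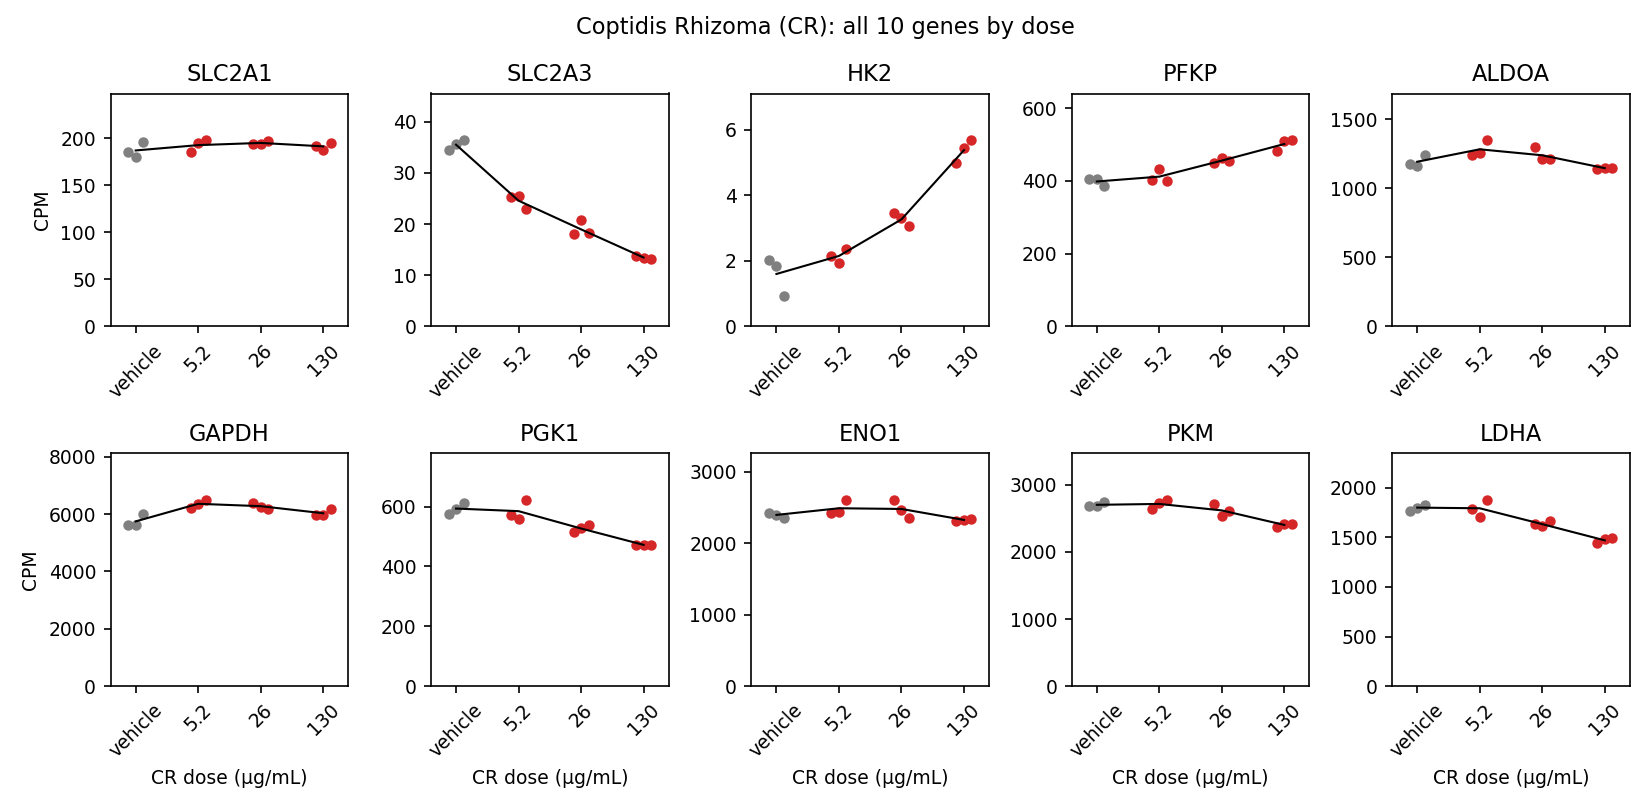
Levels of the 10 genes in CPM in each library for vehicle and CR at 5.2, 26 and 130 µg/mL, with lines through the means of 3 libraries. HK2 and PFKP rise to 5.38 and 502 CPM at the high dose, and SLC2A3, PGK1, PKM and LDHA fall to 13.5, 472, 2400 and 1470 CPM.

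The promoters of HK2, PGK1 and LDHA are shown because HK2 rose with CR high while PGK1 and LDHA fell, and all 3 are classical targets of hypoxia-inducible factor. PFKP, which rose with CR high by about as much as PGK1 fell, held none of the motifs searched in its window. The letters are the 250 bases before the RefSeq start on GRCh38.p14, plus strand, with capitals at ACGTG and GCGTG (cores of the hypoxia response element) and CACGTG (the E-box of MYC and MAX) on either strand. The E-box reads alike on both strands and holds ACGTG on each.
HK2 (chr2:74833877-74834126): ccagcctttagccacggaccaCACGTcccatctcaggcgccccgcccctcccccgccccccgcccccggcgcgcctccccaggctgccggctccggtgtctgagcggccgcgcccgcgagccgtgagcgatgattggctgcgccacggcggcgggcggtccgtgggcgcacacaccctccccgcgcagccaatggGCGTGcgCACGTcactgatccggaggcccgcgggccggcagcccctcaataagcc
PGK1 (chrX:78103998-78104247): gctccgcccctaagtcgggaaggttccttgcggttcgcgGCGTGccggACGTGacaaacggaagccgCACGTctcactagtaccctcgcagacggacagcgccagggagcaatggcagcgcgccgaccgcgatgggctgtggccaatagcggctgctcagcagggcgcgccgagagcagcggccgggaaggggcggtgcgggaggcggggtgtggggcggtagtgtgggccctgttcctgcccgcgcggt
LDHA (chr11:18394313-18394562): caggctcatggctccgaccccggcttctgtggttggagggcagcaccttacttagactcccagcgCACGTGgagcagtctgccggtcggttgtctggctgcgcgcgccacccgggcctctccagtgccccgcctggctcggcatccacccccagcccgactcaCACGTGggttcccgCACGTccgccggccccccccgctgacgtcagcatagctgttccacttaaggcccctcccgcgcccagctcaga
HK2 held ACGTG 229 and 48 bases before the start and GCGTG 55 bases before it. PGK1 held ACGTG 202 and 183 bases and GCGTG 211 bases before the start. LDHA held CACGTG 185 and 87 bases before the start and a further ACGTG 73 bases before it. In windows from 250 bases before to 50 after the start, the RefSeq table used here had 9 of the 10 members, SLC2A3 not among them, and ACGTG lay in 5, GCGTG in 6, either of them in 8 and CACGTG in 2, LDHA and GAPDH. Of all 27305 such windows 21.6% held ACGTG, 36.3% held GCGTG, 48.4% held either and 7.43% held CACGTG. A match is a run of letters and was not measured as a binding site. Whether these motifs bear on the changes in level was not tested.

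The remaining low and medium doses gave no call among the 10 members. The share of all genes called was 0.28% with ZRR medium, 0.0175% with PT medium, 0% with SR medium, 0.111% with ZRR low, 0.00584% with ZR low, 0% with PT low and 0.00584% with SR low. At an unadjusted p under 0.05 edgeR counted 4 members with ZRR medium, 1 each with ZRR low, ZR low and SR low and 0 with PT medium, SR medium and PT low, and DESeq2 called 0 of 10 in each. At the same unadjusted threshold edgeR counted 15.2% of all genes with ZRR medium, 17.9% with ZRR low, 9.62% with ZR low, 5.27% with SR low, 4.12% with PT medium, 4.22% with SR medium and 3.25% with PT low. With ZRR medium GAPDH had 6480, 6460 and 6370 CPM, against 5620, 5620 and 5990 CPM with vehicle, a log2 change of 0.16 ± 0.06 (SE, edgeR adjusted p = 0.23, and 0.00553 when only those 6 libraries were fitted). GAPDH was thus at its highest mean, 6440 CPM, in a group without a call, and at its lowest, 4780 CPM, with wortmannin.

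Extracts were set against each other at their high doses. Of the pairs compared, only ZRR and ZR share the first number of the sample code. In the other pairs that number differs and cannot be told apart from the extract. Between the gingers, ZRR high against ZR high, SLC2A3 was the 1 member of 10 called, where 0.712% of all genes were called. It had 19.9, 22.5 and 19.8 CPM with ZRR, against 16, 16.3 and 16.5 CPM with ZR, a log2 difference of 0.35 ± 0.06 (SE, edgeR adjusted p = 0.000958). For the 9 others the log2 differences lay between -0.095 (HK2) and 0.093 (GAPDH), with edgeR adjusted p-values of at least 0.932.

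PT differed from both gingers in SLC2A3 and PKM. PT high against ZRR high gave 2 called members of 10 (4.3% of all genes) and PT high against ZR high gave 2 (4.12%), all higher with PT. SLC2A3 averaged 29.7 ± 0.808 CPM with PT, against 20.7 ± 1.54 CPM with ZRR and 16.2 ± 0.254 CPM with ZR (SD, n = 3 each), log2 differences of 0.52 ± 0.06 and 0.87 ± 0.06 (SE, edgeR adjusted p = 2.36e-08 and 7.98e-15). PKM had 2810, 3080 and 2760 CPM with PT, against 2570, 2610 and 2610 CPM with ZRR and 2570, 2580 and 2640 CPM with ZR (edgeR adjusted p = 0.0133 and 0.0155). Both PKM calls were lost without PT high replicate 2, the highest of these libraries, without the filter and in fits of the 6 libraries alone. The call against ZRR was also lost without any of the 3 ZRR high libraries, and that against ZR without ZR high replicate 1 or 2.

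Between ZF and the gingers SLC2A3 was the called member. ZF high against ZRR high gave 1 called member of 10 (4.09% of all genes) at 0.63 ± 0.06, and ZF high against ZR high gave 1 (4.87%) at 0.98 ± 0.06 (SE, edgeR adjusted p = 1.44e-10 and 9.35e-17). ZF high against PT high gave 0 of 10, where 0.269% of all genes were called, with 0 members at an unadjusted p under 0.05 in edgeR (4.89% of all genes) and 0 called by DESeq2.

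CR and SR were given at different high doses, 130 and 230 µg/mL. CR high against SR high gave 7 called members of 10, 2 higher and 5 lower, where 21.9% of all genes were called. SLC2A3 was at 13.5 ± 0.314 CPM with CR and 41.1 ± 2.64 CPM with SR (SD, n = 3 each), a log2 difference of -1.61 ± 0.06 (SE, edgeR adjusted p = 4.75e-26). HK2 was at 5.38 ± 0.351 and 2.04 ± 0.428 CPM, and PFKP at 502 ± 15.7 and 419 ± 11.4 CPM, both higher with CR (edgeR adjusted p = 1.05e-07 and 2.21e-06). SLC2A1 was lower with CR at 191 ± 4.08 CPM, beside 226 ± 3.04 CPM with SR (edgeR adjusted p = 1.93e-07). PGK1, PKM and LDHA were also lower with CR, at log2 differences of -0.26, -0.17 and -0.22 (edgeR adjusted p = 5.51e-06, 0.000745 and 0.000386).

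Each enzyme shares its step with other isozymes. HK2 was 3.88% ± 0.179 of the hexokinase counts with CR high and 1.55% ± 0.54 with vehicle (SD, n = 3 each), and HK1 and HKDC1 held the rest, with 70.9 and 30.3 CPM in vehicle libraries. HKDC1, a hexokinase family member, averaged 30.3 CPM with vehicle and 35.9, 47.9 and 63.5 CPM at the low, medium and high dose of CR, and the log2 change of 1.063 ± 0.065 at the high dose was called (SE, edgeR adjusted p = 1.06e-18). HKDC1 rose with SR high too, to 52.6 CPM, while HK1, the housekeeping hexokinase, fell to 57.6 CPM with SR high, against 70.9 CPM with vehicle (edgeR adjusted p = 1.03e-13 and 2.21e-07). PFKP was 82.6% ± 0.265 of the phosphofructokinase counts with CR high and 76.6% ± 0.226 with wortmannin, against 78.7% ± 0.744 with vehicle. LDHA was 52.3% ± 0.238 of LDHA and LDHB counts with CR high and 56.4% ± 0.282 with vehicle. ENO1 and ALDOA held group means of at least 97.2% of the counts of their families.

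Genes around the route were read from lists chosen with earlier results known. Of 13 other glycolytic isozymes and steps tested, 3 rose and 4 fell with wortmannin, where 25.3% of all genes were called, and 2 rose and 2 fell with CR high, where 35.1% were called. GPI, which converts glucose phosphate to fructose phosphate, averaged 817 CPM with wortmannin and 995 CPM with vehicle, a log2 change of -0.285 ± 0.041, and PGAM1, the mutase between PGK1 and enolase, 402 and 524 CPM at -0.38 ± 0.05 (SE, edgeR adjusted p = 4.21e-07 and 1.45e-07). PGAM1 also fell with CR high, to 410 CPM at -0.355 ± 0.052 (SE, edgeR adjusted p = 2.46e-07). ENO2, the neuronal enolase, rose to 41.2 CPM with wortmannin and 44.3 CPM with CR high, against 31.5 CPM with vehicle (edgeR adjusted p = 3.22e-07 and 2.7e-10). ENO1 moved the other way with wortmannin, while with CR high it was not called (edgeR adjusted p = 0.634).

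Among 8 tested hexose transporters outside the members 3 rose and 0 fell with wortmannin (25.3% of all genes called), with SLC2A13, a myo-inositol carrier of the same family, at 18.6 CPM, against 13.4 CPM with vehicle (edgeR adjusted p = 0.000137). With CR high 1 rose, SLC2A11, where 35.1% of all genes were called. With SR high, where 23.9% were called, 1 rose, SLC2A6, at 20.8 CPM against 11.6 CPM with vehicle (edgeR adjusted p = 1.09e-11). SLC2A4, the insulin-regulated transporter, did not pass the filter and was at 0.139 ± 0.0796 CPM with vehicle (SD, n = 3).

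Among 17 tested genes for the control of flux and pyruvate fate, 2 rose and 9 fell with CR high, where 35.1% of all genes were called, 4 rose and 4 fell with wortmannin (25.3% of all genes) and 3 rose and 2 fell with SR high (23.9%). PDK4, a kinase that shuts off pyruvate dehydrogenase, averaged 11.3 CPM with CR high and 21.9 CPM with vehicle, a log2 change of -0.94 ± 0.10, whereas it rose with wortmannin to 39.3 CPM at 0.85 ± 0.09 (SE, edgeR adjusted p = 2.6e-11 and 2.12e-10). PFKFB3, which makes the activator of phosphofructokinase, fell to 431 CPM with CR high and 436 CPM with SR high, against 528 CPM with vehicle (edgeR adjusted p = 2.21e-06 and 1.23e-05). SLC16A1, a lactate carrier, fell with wortmannin to 87.2 CPM and with SR high to 87.6 CPM, against 101 CPM with vehicle (edgeR adjusted p = 4.58e-05 and 7.26e-05).

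In the branches from glycolysis, 2 of 16 tested genes rose and 2 fell with wortmannin (25.3% of all genes called), 8 rose and 4 fell with SR high (23.9%) and 6 rose and 4 fell with CR high (35.1%). PHGDH, which draws a glycolytic intermediate into serine, averaged 31.5 CPM with wortmannin, 145 CPM with SR high and 157 CPM with CR high, against 71 CPM with vehicle (edgeR adjusted p = 5.97e-16, 3.71e-15 and 2.73e-17). PCK2, the mitochondrial enzyme that makes phosphoenolpyruvate, averaged 18.3 CPM with wortmannin, 103 CPM with SR high and 109 CPM with CR high, against 34 CPM with vehicle (edgeR adjusted p = 4.98e-13, 1.39e-23 and 7.24e-25). PCK2 and PHGDH were also higher with both gingers at 500 µg/mL, PCK2 at 59.2 CPM with ZRR and 58 CPM with ZR and PHGDH at 110 and 107 CPM (edgeR adjusted p = 1.25e-11, 1.96e-11, 4.51e-08 and 1.53e-07). GFPT1 or GFPT2, the entry to hexosamine synthesis, rose in these 4 extract groups.

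Of 12 tested regulators, 3 rose and 4 fell with CR high (35.1% of all genes called) and 5 rose and 0 fell with SR high (23.9%). MYC, a transcription factor that drives many glycolytic genes, averaged 183 CPM with CR high and 177 CPM with SR high, against 133 CPM with vehicle (edgeR adjusted p = 5.01e-12 and 3.29e-10). EGLN1, the oxygen sensor that marks hypoxia-inducible factor for decay, fell to 120 CPM with CR high, 149 CPM with ZR high and 165 CPM with ZRR high, against 195 CPM with vehicle (edgeR adjusted p = 8.81e-20, 3.75e-10 and 3.97e-05). TXNIP, the glucose-responsive brake on glucose uptake, did not pass the filter and was at 0.162 CPM with vehicle.

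Hypoxia-inducible genes outside glycolysis moved in both directions with CR high and with wortmannin, while most of those called with SR high rose. Of 20 tested, 6 rose and 5 fell with CR high (35.1% of all genes called), and 3 rose and 3 fell with wortmannin (25.3%). With SR high 8 rose and 1 fell, where 13% of all genes were called higher and 10.9% lower. VEGFA, the angiogenic growth factor, averaged 71.9 CPM with CR high and 69.8 CPM with SR high, against 40 CPM with vehicle (edgeR adjusted p = 4.77e-18 and 1.16e-16), while ADM, another hypoxia-induced peptide, fell to 36.8 CPM with CR high, against 47.9 CPM with vehicle (edgeR adjusted p = 6.17e-06). DDIT4, an inhibitor of mTOR signalling that many stresses induce, averaged 459 CPM with CR high, 460 CPM with SR high and 144 CPM with wortmannin, against 177 CPM with vehicle (edgeR adjusted p = 6.22e-27, 2.02e-26 and 6.94e-06).

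Over the 20 group means the genes whose log2 levels ran most like those of SLC2A3 were the immediate early nuclear receptors NR4A1 and NR4A2, at Pearson r of 0.979 and 0.978. For HK2 they were ZNF783 at 0.95 and SH3KBP1 at 0.94, and for PFKP GART, a purine synthesis enzyme, at 0.967 and SH3KBP1 at 0.96. For LDHA they were PBK at 0.977 and MYBL2 at 0.971, both genes of proliferating cells, and for PGK1 BZW2 at 0.973 and TUBG1 at 0.968. SLC2A1 had the least close partners, JADE1 at 0.867 and BNIP3L at 0.865. For ENO1 and ALDOA the same gene CKS1B appeared, at 0.966 and 0.952, and for GAPDH the closest was PSMD8 at 0.956 and for PKM SAE1 at 0.936. These values are the highest of 17129 genes and describe 20 points that share their vehicle and dose structure. Among the members, ALDOA and GAPDH each had an r of 0.928 with ENO1, and SLC2A3 and HK2 ran opposite at -0.743. The CR groups contribute to that value, and HK2 was not called with ZR high or ZRR high, where SLC2A3 fell.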

How the data were processed

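The deposited table holds RSEM-type expected counts per Ensembl gene, estimated by the authors and not normalised, as its fractional values and differing totals show. Tools listed in the submitters' processing notes are RSEM 1.3.3, STAR 2.7.3a, Trim Galore 0.6.5 and FastQC 0.11.9, and the build is GRCh38 (hg38). Which annotation was counted, and whether by strand, the sources used here do not say, so reads of overlapping genes may not have been told apart. The kit was directional and the reads were paired, per the labels' protocols. Of the 269 columns 60 match samples of the series, and 209 others were not used.

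Expected counts were rounded (9.06% of values were not whole). edgeR 4.0.16 under R 4.3.3 (TMM, filterByExpr by group, robust quasi-likelihood fit) took all 60 libraries with a column for each group, which left 40 residual degrees of freedom, and 17129 genes passed the filter. The common biological coefficient of variation was 7.04%. An SE is the fold change divided by the square root of F. All 10 members are named, and from each other list the called genes with the 3 smallest p in each direction. For likeness the 2 genes with the highest r were taken per member. Members, lists and rules were chosen with earlier results of these data known. Per-length levels divide CPM by the longest GENCODE 29 transcript.

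Alternatives were the size factors of DESeq2, DESeq2 1.42.0 as the test, no filter, a fit of the 2 groups alone, a replicate block, the transcript length slope as a covariate and each library left out. Leaving out 3 libraries whose length dependence was extreme, and library totals without TMM, were chosen after seeing the data. The fit was tested on data simulated for wortmannin against vehicle (17054 genes), where it called 80 of 100 genes changed by a fold of 1.5, 97 of 100 changed by a fold of 2 and 9 unchanged genes. The changed genes were drawn from those above 1 CPM in vehicle, and all others were left equal. Folds under 1.5, the size of most member changes, were not simulated. No 2 libraries were identical, and replicates differed by a chi-square of at least 2.13 for each degree of freedom. Same-numbered libraries deviated together (each r over 0.1) in 1 of 32 comparisons, so the numbers were not taken to pair libraries. Promoter windows are RefSeq's (GRCh38.p14).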

Additional observations from a re-analysis of the deposited data

How the results depend on the processing

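Of the 56 calls among the members 37 held under each alternative run, 19 were lost under at least one and 0 changed sign, while 36 of the 264 values without a call gained one. In 3 of these 36 the call had the opposite sign to the main value, each without TMM: SLC2A1 (-0.108) and PKM (-0.146) with CR low against vehicle and SLC2A1 (0.129) in CR high against CR low. Counts of called members stayed within 1.5 times the main count except as follows. Without the filter they were 5 for wortmannin, 3 for CR medium, 1 each for ZRR, ZR and SR high against low and for PT high against either ginger, and 0 for PT high against low. With the length slope as covariate they were 2 for ZRR high, 3 for ZR high, 5 for SR high, 5 for CR low, 6 for SR high against low and 2 for ZF high against ZR high. Without TMM they were 5 for CR low and 1 each for ZRR and ZR high against low. With DESeq2 they were 2 for ZR high and 2 for ZF high against ZR high. In fits of the 6 libraries alone they were 0 for PT high, 4 for ZRR medium, 3 for ZR medium, 1 each for ZRR and ZR high against low and for PT high against either ginger, and 0 for PT high against low. Without the 3 libraries of extreme length dependence they were 2 for ZR high, 1 for ZRR medium, 3 for ZR medium, 2 for CR low, 1 each for ZRR and ZR high against low and 4 for PT high against ZR high. The cause was not tested.

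With single libraries left out the counts ranged between 5 and 8 for wortmannin (lowest without vehicle replicate 2 or wortmannin replicate 3), 0 and 1 for PT high, 1 and 1 for ZRR high against low, 1 and 3 for ZR high against low, 0 and 0 for PT high against low, 2 and 3 for SR high against low, 1 and 2 for PT high against ZRR high and 1 and 3 for PT high against ZR high. The replicate block left each count of called members as it was, for instance at 9 for wortmannin, 6 for CR high and 7 for CR high against low, and the calls it changed were 0. The size factors of DESeq2 shifted the median fold change of all genes by at most 0.015 (log2), and 4 of the 200 group levels of the members moved by more than their SD, against 39 of 200 without TMM. With HK2 at 18 to 159 counts per library, small differences in it were not detectable at this depth.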
